A study of Rattus norvegicus with 12 samples.

Results

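The genes followed here are 10 genes used as markers of tuft cells: Pou2f3, Gfi1b, Trpm5, Plcb2, Alox5ap, Hpgds, Ptgs1, Il25, Avil and Dclk1. They were chosen by name, not by level, from the 21914 genes with a probe on the array, and all 10 were found, with 12 probes and 30 spots. Samples labelled as colonic epithelium came from male Wistar rats weighing 180 to 200 g, which ate a high protein diet (6 samples) or a normal protein diet (6 samples) for 6 weeks. The question was how colonic transcripts differ between the diets, and the protein content of either diet is not given in the sources used here. Each sample was hybridised to 1 single-colour Agilent rat array. The labels number the replicates but do not say that each is a separate animal, so p-values measure the spread between these samples, which may be technical.

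Tuft cells are rare chemosensory cells of the gut lining, recognised by a tuft of long microvilli. Work in mice showed that they use a taste-type cascade, in which G-protein-coupled receptors activate the phospholipase PLCB2 and open the channel TRPM5, and that they depend on the transcription factor POU2F3. They release interleukin 25, which stimulates type 2 innate lymphoid cells, and they make cysteinyl leukotrienes and prostaglandin D2. Several of their markers also mark other cells: Hpgds marks mast cells and some macrophages, Ptgs1 platelets and stroma, Alox5ap leukocytes, Dclk1 neurons and Avil sensory neurons.

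Avil, the actin-bundling protein advillin, and Trpm5 were the members whose values moved most closely together over the arrays, so their promoters are shown. Each sequence runs from 250 bases before to 50 bases after an annotated start, from RefSeq on GRCr8, and 5 of the 10 members had such an entry. POU factors bind an octamer, ATGCAAAT, searched here on both strands. That octamer was in 595 of 33469 promoters of this length (1.78%) and in 0 of the 5 member promoters. The same octamer without its last letter, ATGCAAA, also searched on both strands and chosen after the Avil sequence had been seen, was in 1566 promoters (4.68%) and, among the 5 members, in Avil alone. Capitals in the Avil sequence mark this match, with its first letter at position -47 from the start used here. A match is a description of letters and not a binding site. The sequences are Avil at chr7:64711153-64711452 on the plus strand and Trpm5 at chr1:207707039-207707338 on the minus strand. As whole genes, Avil begins at 64711294 and Trpm5 at 207707380, both upstream of the starts used here. The Avil match thus lies inside the gene as annotated.
Avil: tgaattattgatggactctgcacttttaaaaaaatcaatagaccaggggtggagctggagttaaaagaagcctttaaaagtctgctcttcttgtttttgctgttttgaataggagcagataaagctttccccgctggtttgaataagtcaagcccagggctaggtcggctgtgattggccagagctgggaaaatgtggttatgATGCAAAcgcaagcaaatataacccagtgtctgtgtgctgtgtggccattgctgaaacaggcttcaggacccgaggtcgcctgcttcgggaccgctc
Trpm5: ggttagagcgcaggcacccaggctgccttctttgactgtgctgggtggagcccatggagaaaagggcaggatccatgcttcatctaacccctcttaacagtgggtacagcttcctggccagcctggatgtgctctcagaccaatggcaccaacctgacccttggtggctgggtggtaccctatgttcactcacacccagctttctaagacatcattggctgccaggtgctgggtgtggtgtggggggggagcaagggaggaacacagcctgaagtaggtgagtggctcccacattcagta

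Values are log2 intensities after the 12 arrays were background corrected and quantile normalized together, and a difference is high protein minus normal protein on that scale. On each array the deposited flag marks 42.67% to 55.86% of gene spots as good. Precision is limited by there being 12 arrays. The tissue label was set against marker genes: 9 of 9 epithelial markers and 8 of 8 smooth muscle markers passed the detection filter. Their summed normalized intensity was 34330 to 74100 on high protein and 45320 to 62610 on normal protein for epithelium, and 33850 to 69490 on high protein and 51080 to 71570 on normal protein for smooth muscle. Muscle transcripts were thus measured beside epithelial ones. In such bulk samples, fewer tuft cells and less RNA per tuft cell cannot be told apart. Libraries also differed in colon position genes: Hoxb6 and Hoxb7 were above 10 in high protein replicates 3 and 4 and normal protein replicate 6, and between 6.38 and 7.49 in the other 9 arrays.

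Of the 10 genes 5 passed the flag filter, and none of these 5 changed with diet past the test. The test was kept to probes with a share of good spots of 0.5 or more on 6 or more arrays of either diet, which 5 members passed: Alox5ap, Hpgds, Ptgs1, Avil and Dclk1. With limma over all 10451 tested genes, 0 of these 5 members passed an adjusted p of 0.05, and 0% of all tested genes did (smallest adjusted p 0.701). At an unadjusted p under 0.05, limma called 0 of the 5 members, against 698 of all tested genes (6.68%). Nor did the diet groups separate without overlap in any of the 5, as they did in 0.354% of all tested genes. All 5 differences were below 0, with a median of -0.09, while 48.5% of all tested genes lay below 0 and their median was 0.01. Several marker lists of other cell types lay mostly below 0 as well. Among them were 4 of 5 enteroendocrine genes (median -0.83), 6 of 6 goblet cell genes (-0.43) and 8 of 9 epithelial genes (-0.35). Also below 0 were 9 of 10 macrophage genes (-0.29), 5 of 5 mast cell genes (-0.20) and 8 of 8 smooth muscle genes (-0.18). Others did not: all 3 tested erythroid genes lay above 0 (median 0.31), as did the 1 tested neutrophil gene (0.51). None of these genes passed the limma adjusted threshold, and the part of these cell types in the direction of the 5 members was not tested.

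**Figure D1:**
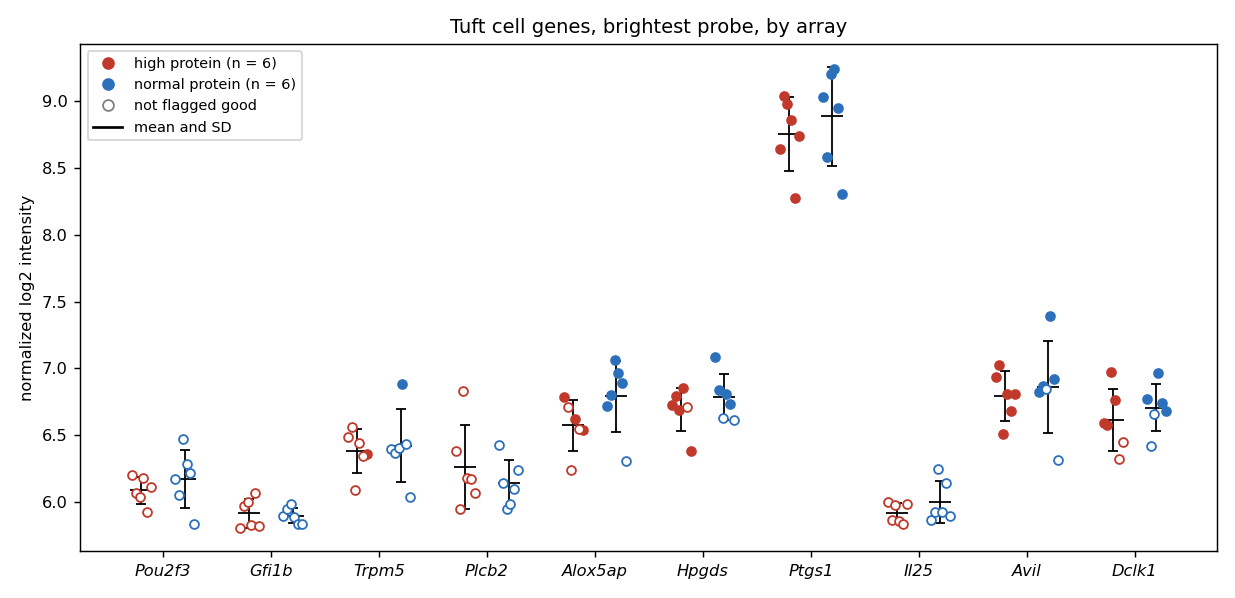
Normalized log2 intensity (vertical axis) of the brightest probe of each of the 10 tuft cell genes (horizontal axis), with 1 point for each of the 6 high protein arrays (red, left) and 6 normal protein arrays (blue, right). Filled points were flagged good, open points were not, and lines give the mean and SD. Each gene is to be read on its own, since levels of different probes are not comparable, and the points of both diets overlap in all 10 genes.

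Neither transcription factor was flagged good on any array. Pou2f3, which specifies the tuft cell lineage in mice, was flagged good on 0 of 6 high protein arrays and 0 of 6 normal protein arrays. Its lowest, median and highest log2 values were 5.93, 6.09 and 6.21 on high protein, and 5.84, 6.20 and 6.47 on normal protein. The signal exceeded the 95th percentile of the array's negative controls on 3 arrays of each diet, so the gene stood at the edge of background. Gfi1b, a zinc-finger repressor found in tuft cells, megakaryocytes and erythroid cells, was flagged good on 0 arrays and exceeded that percentile on 0 of 12. With no good flag in either diet, no difference is given for either gene.

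The signalling genes were also dim. Trpm5, the calcium-activated cation channel, was flagged good on 1 array of each diet, high protein replicate 6 and normal protein replicate 4. Its lowest, median and highest log2 values were 6.09, 6.40 and 6.56 on high protein, and 6.04, 6.40 and 6.89 on normal protein. It nevertheless exceeded the negative controls' 95th percentile on 6 of 6 high protein arrays and 5 of 6 normal protein arrays. Without the detection filter the difference was -0.04 ± 0.12 (SE), with a limma adjusted p of 0.957 over all genes on the array. Normal protein replicate 4 was the highest array, and high protein replicate 3 and normal protein replicate 6 the lowest. Plcb2, the phospholipase upstream of Trpm5, was flagged good on 0 arrays and exceeded the 95th percentile on 5 of 6 arrays of each diet. Its values ran between 5.95 and 6.83 on high protein and between 5.95 and 6.42 on normal protein. High protein replicate 3, among the lowest for Trpm5, was the highest for Plcb2, on 1 spot not flagged good. In the submitters' own values, with IDs moved by 1 row, that array was not the highest for Plcb2. It stood at 4.30, below normal protein replicates 6 (4.88) and 1 (4.77) and high protein replicate 1 (4.64).

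The eicosanoid enzymes included the largest diet difference among the tested members, in Alox5ap. This gene encodes FLAP, which hands arachidonic acid to 5-lipoxygenase for leukotriene synthesis. Its lowest, median and highest values were 6.24, 6.58 and 6.79 on high protein, and 6.31, 6.85 and 7.06 on normal protein. Means were 6.58 ± 0.19 on high protein and 6.79 ± 0.27 on normal protein (SD, n = 6 each), and all 6 high protein arrays lay below the normal protein mean. The difference was -0.22 ± 0.13 (SE), a fold of 0.860 with a 95% interval of 0.710 to 1.04 (limma adjusted p = 0.731). An exact two-sided permutation test over every assignment of the arrays to 6 and 6 gave p = 0.134. Normal protein replicates 1 and 6 lay within the high protein range, so the groups overlapped. The probe was flagged good on 3 of 6 high protein arrays and 5 of 6 normal protein arrays. The fold and its interval hold for the background-correction offset of 50 used here. With an offset of 10 the Alox5ap difference was -0.35, and the series value table gave -0.47. Scaling to the median gave -0.21.

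Hpgds, the haematopoietic prostaglandin D2 synthase, had lowest, median and highest values of 6.39, 6.72 and 6.85 on high protein, and 6.62, 6.77 and 7.08 on normal protein. Its difference was -0.09 ± 0.10 (SE), a fold of 0.939 with a 95% interval of 0.809 to 1.09 (limma adjusted p = 0.837). The groups overlapped along most of their range, with high protein replicate 6 the lowest array and normal protein replicate 1 the highest. Leaving out high protein replicate 6 gave a difference of -0.03, and leaving out normal protein replicate 6 gave -0.13. It was flagged good on 5 of 6 high protein arrays and 4 of 6 normal protein arrays. Ptgs1, the cyclooxygenase COX-1, was the one member flagged good on all 12 arrays. Its lowest, median and highest values were 8.28, 8.80 and 9.04 on high protein, and 8.30, 8.99 and 9.24 on normal protein. The difference was -0.13 ± 0.17 (SE), a fold of 0.915 with a 95% interval of 0.705 to 1.19 (limma adjusted p = 0.871). High protein replicate 5 and normal protein replicate 6 were its lowest arrays. The difference was -0.03 without high protein replicate 5 and -0.25 without normal protein replicate 6. A second Ptgs1 probe, with 1 spot, was flagged good on 0 arrays, and so could not serve as a check.

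The cytokine Il25 was flagged good on 0 arrays and exceeded the negative controls' 95th percentile on 1 of 12. Its values lay around a median of 5.92 on high protein and 5.93 on normal protein, with the highest array, a normal protein one, at 6.25, and no difference is given.

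Among the structural markers, Avil had lowest, median and highest values of 6.51, 6.81 and 7.03 on high protein, and 6.32, 6.86 and 7.39 on normal protein. Means were 6.80 ± 0.18 on high protein and 6.86 ± 0.34 on normal protein (SD, n = 6 each). The difference was -0.07 ± 0.15 (SE), a fold of 0.955 with a 95% interval of 0.764 to 1.19 (limma adjusted p = 0.926). Both the highest array, replicate 4, and the lowest, replicate 6, were normal protein arrays, and the 6 high protein arrays lay between them. Leaving out normal protein replicate 6 gave -0.18, and leaving out normal protein replicate 4 gave 0.040. Avil was flagged good on 6 of 6 high protein arrays and 4 of 6 normal protein arrays. Dclk1, a doublecortin-like kinase that marks tuft cells in mouse intestine, had lowest, median and highest values of 6.33, 6.59 and 6.97 on high protein, and 6.42, 6.71 and 6.97 on normal protein. Its difference was -0.09 ± 0.12 (SE), a fold of 0.938 with a 95% interval of 0.788 to 1.12 (limma adjusted p = 0.859). High protein replicate 3 and normal protein replicate 4 were nearly level at the top. With single arrays left out the difference ran from -0.16, without high protein replicate 3, to -0.03, without high protein replicate 5. Dclk1 was flagged good on 4 of 6 arrays of each diet, and its second probe on 0 arrays.

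**Figure D2:**
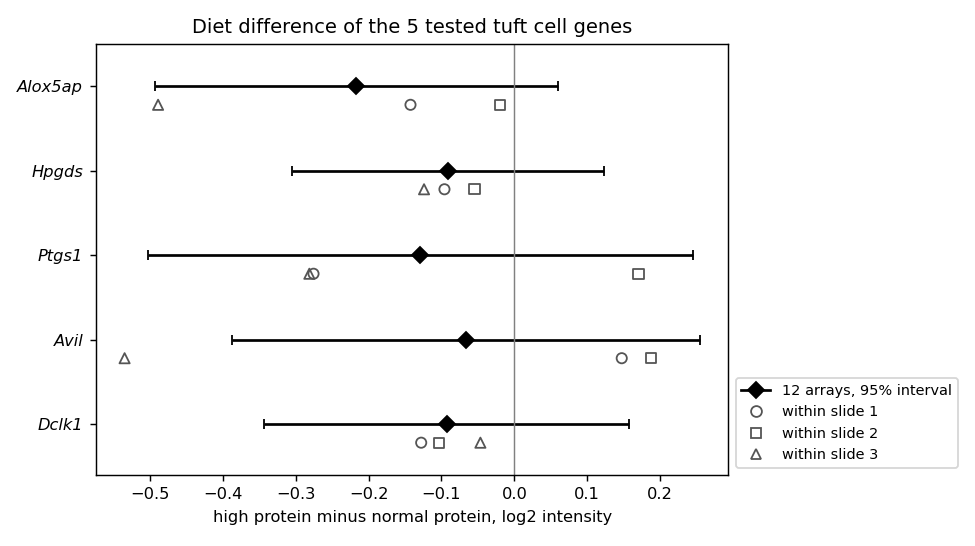
High protein minus normal protein difference in log2 intensity (horizontal axis) of the 5 tested tuft cell genes (rows). Diamonds and bars give the limma estimate and 95% interval over 12 arrays, and open symbols the difference within each slide, which held 2 arrays of each diet. Every interval includes 0, and Avil and Ptgs1 have within-slide differences on both sides of 0.

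Differences were also taken within each of the 3 slides. Alox5ap gave -0.14, -0.02 and -0.49 within slides 1, 2 and 3. Hpgds gave -0.10, -0.05 and -0.12, and Dclk1 gave -0.13, -0.10 and -0.05, so these 3 genes kept the same direction. Avil gave 0.15, 0.19 and -0.54, and Ptgs1 gave -0.28, 0.17 and -0.28, so neither kept a direction across slides. Slide 3 held both normal protein replicate 4 and high protein replicate 3.

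The Avil value depended on how its repeated spots were summarised. The array carries 10 spots of the Avil probe. In normal protein replicate 1, 1 spot read 18305 intensity units, whereas the other 9 spots on that array read 87 to 109 and the same spot read 62 to 169 on the other arrays. The deposited flag did not mark it good. Spots of a probe were therefore summarised by their median, a choice made after this spot was seen. With the mean of spots, normal protein replicate 1 stood at 7.55 in place of 6.82, and the Avil difference was -0.20 in place of -0.07. Readings more than 3 log2 units above their probe's median made up 109 of 166800 (0.0653%) over the 1390 probes with 10 spots.

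**Figure D3:**
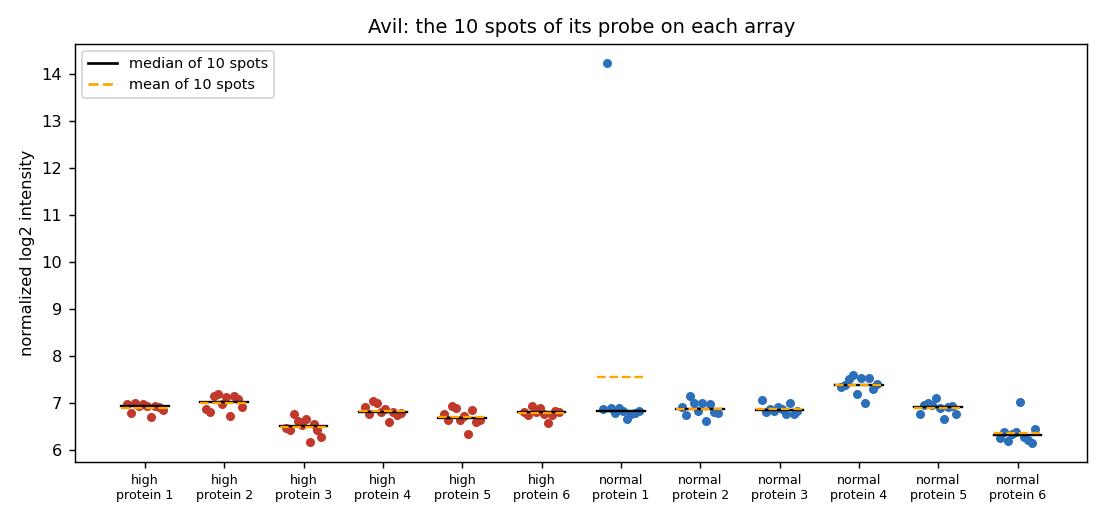
Normalized log2 intensity (vertical axis) of each of the 10 Avil spots on the 6 high protein arrays (red) and the 6 normal protein arrays (blue). Solid lines mark the median of the spots and dashed lines their mean. Apart from 1 spot in normal protein replicate 1, where the mean is 7.55 and the median 6.82, means and medians nearly coincide.

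Repeated spots give the measurement error of the 2 members that have them. For Avil the SD between spots of an array had a median of 0.161, and the SD between arrays within a diet was 0.275. For Ptgs1 these values were 0.235 between spots and 0.326 between arrays. Among 246 probes with 10 spots and a mean level between 6.3 and 7.1, the corresponding values were 0.138 between spots and 0.130 between arrays. Avil thus varied more between arrays of a diet than probes of its level typically did. The single-spot members had SDs between arrays of 0.231 for Alox5ap, 0.205 for Dclk1 and 0.168 for Hpgds.

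Agreement between members was uneven. Over the 12 arrays Trpm5 and Avil had a Pearson r of 0.98 and a Spearman rho of 0.87. Permutation gave p = 1e-05 for r, the smallest that 100000 permutations can give, and 0.00044 for rho. Adjusted over the 45 pairs of members, these were 0.00045 and 0.0198. Without the extreme arrays for Trpm5, normal protein replicates 4 and 6, r was 0.94. Within high protein arrays r was 0.96, within normal protein arrays 0.99, and with diet and slide means removed 0.98. Among the 10451 tested genes, Avil ranked 1 in likeness to Trpm5 after removing diet means. The points share arrays, slides and normalization, and most Trpm5 readings were not flagged good.

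The agreement was also present spot by spot. Each of the other 9 Avil spots alone correlated with Trpm5 at an r of 0.727 to 0.967. The spot with the stray reading gave 0.107, and 0.954 without normal protein replicate 1. The order of arrays was shared at both ends: normal protein replicate 4 was the highest for both genes and normal protein replicate 6 the lowest, followed by high protein replicate 3. With the mean of spots r was 0.75, and on the submitters' own values, with their IDs moved by 1 row, it was 0.85.

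**Figure D4:**
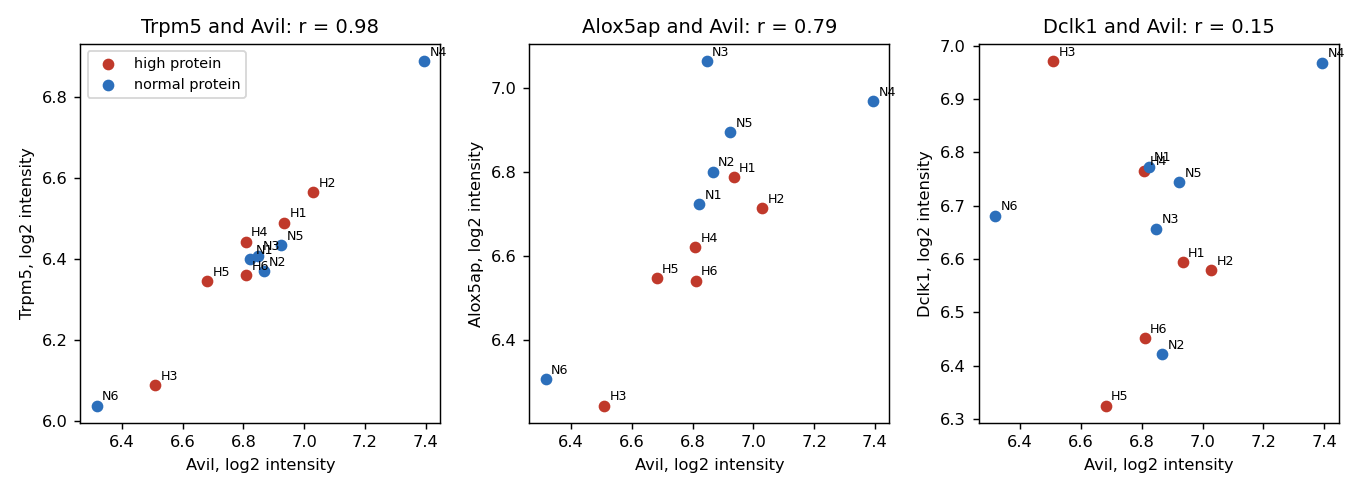
Log2 intensity of Trpm5, Alox5ap and Dclk1 (vertical axes, left to right) against that of Avil (horizontal axes) on 12 arrays, high protein in red (H1 to H6) and normal protein in blue (N1 to N6). Trpm5 follows Avil closely (r = 0.98), Alox5ap less so (r = 0.79), and Dclk1 does not follow it (r = 0.15).

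Alox5ap came next to this pair. Its r was 0.79 with Avil (permutation p = 0.00239, adjusted 0.0269) and 0.76 with Trpm5 (permutation p = 0.00398, adjusted 0.0358). The Spearman rho was 0.77 with Avil and 0.66 with Trpm5, with adjusted p of 0.0771 and 0.171. Without the extreme arrays for Alox5ap, high protein replicate 3 and normal protein replicate 6, r with Avil was 0.55, so part of that relation rests on those arrays. For Trpm5 and Alox5ap r was 0.67 without normal protein replicates 4 and 6. After removing diet means, Alox5ap ranked 23 of 10450 genes in likeness to Avil and 34 of 10451 in likeness to Trpm5.

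Pou2f3, although never flagged good, gave an r of 0.82 with Alox5ap and 0.79 with Ptgs1 (permutation p = 0.0012 and 0.00193, both 0.0269 after adjustment). Their Spearman rho was 0.81 and 0.66, with adjusted p of 0.0524 and 0.171. Within high protein arrays r was 0.49 with Alox5ap and 0.39 with Ptgs1, whereas within normal protein arrays it was 0.93 with each. Without the extreme arrays for Pou2f3, normal protein replicates 3 and 6, r was 0.65 and 0.66. Both relations were closer within the normal protein arrays, and that difference between diets was not tested.

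Dclk1 and Hpgds did not follow the others. Dclk1 had an r of 0.15 with Avil, 0.14 with Trpm5 and -0.01 with Alox5ap, and its highest was 0.64 with Ptgs1 (permutation p = 0.0245, adjusted 0.138). Hpgds had an r of 0.30 or less with every other member. Plcb2, which acts in the same cascade as Trpm5, had an r of -0.57 with Trpm5 and -0.64 with Alox5ap (adjusted permutation p = 0.138 for Alox5ap). No Plcb2 reading was flagged good. Without the extreme arrays for Plcb2, high protein replicate 3 and normal protein replicate 1, r with Alox5ap was -0.46. With Trpm5 it was -0.73 without normal protein replicates 4 and 6, the extreme arrays for Trpm5. Over the 10 pairs of tested members the median r was 0.29, and over all 45 pairs it was 0.15. Over all pairs of tested genes with a mean level between 6.3 and 7.1, the median r was 0.00032. That set holds tested genes alone, and Ptgs1 and the dimmest members lie outside its level, so the sets are not matched.

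**Figure D5:**
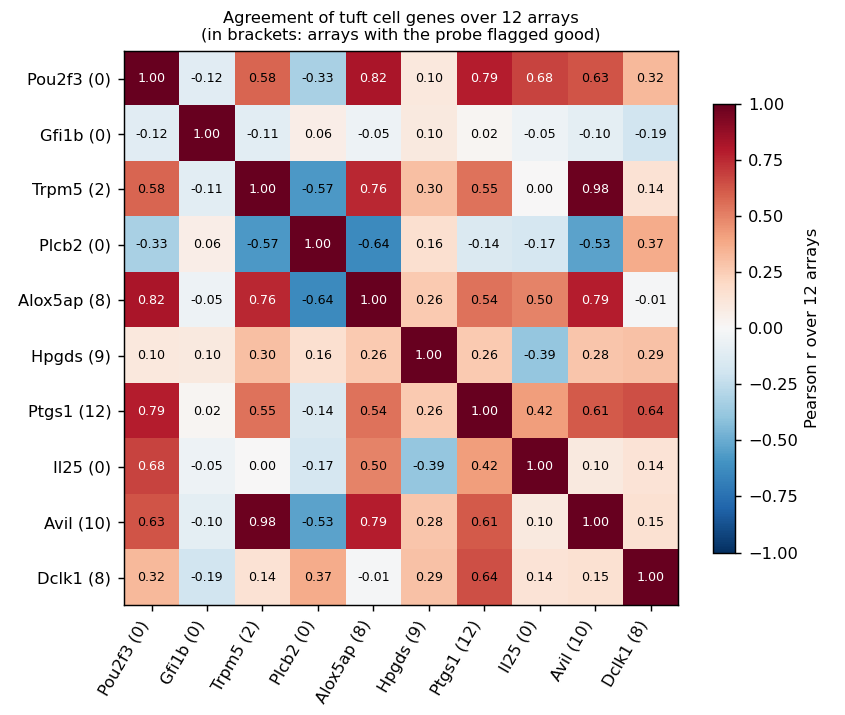
Pearson r over 12 arrays between each pair of the 10 tuft cell genes (rows and columns), with the number of arrays flagged good in brackets. Red marks r above 0 and blue below 0. Trpm5 with Avil stands out at 0.98, Alox5ap joins both, and Dclk1, Hpgds and Gfi1b do not.

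Marker lists of other cell types moved with some members. Correlations with a list's mean level over the 12 arrays, diet means removed, are given as a description, since the points share arrays and normalization. Goblet cell markers (6 of 6 tested) gave 0.83 with Alox5ap, 0.76 with Trpm5 and 0.73 with Avil, and their summed intensity ran from 21940 to 52820 on high protein and from 34900 to 78760 on normal protein. Epithelial markers as a whole gave 0.41 with Alox5ap, 0.33 with Trpm5 and 0.30 with Avil, and smooth muscle markers 0.15, 0.07 and 0.16 with these genes. Endothelial markers (3 of 5 tested, Cdh5 and Tek never flagged good) gave -0.73 with Alox5ap, -0.72 with Avil and -0.66 with Trpm5, with sums of 1308 to 2101 on high protein and 1274 to 3551 on normal protein. Erythroid markers (3 tested of 4 on the array, Epb42 never good) gave -0.89 with Alox5ap, -0.58 with Avil and -0.56 with Trpm5, with sums of 11930 to 23750 on high protein and 4469 to 37090 on normal protein. The part of these cell types in the agreement of Alox5ap, Avil and Trpm5 was not tested.

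Hpgds moved with the markers of macrophages and, less closely, of mast cells. Macrophage markers (10 of 11 tested, Mrc1 never good) gave 0.77 with Hpgds, with sums of 9855 to 17620 on high protein and 12890 to 18160 on normal protein. Mast cell markers (5 tested of 9 on the array, Tpsb2 and Ms4a2 never good) gave 0.59 with Hpgds, with sums of 1375 to 2815 on high protein and 1326 to 4020 on normal protein. Lymphocyte markers (3 of 9 tested) gave 0.31, eosinophil markers (0 of 5 tested) -0.13 and neutrophil markers (1 of 7 tested) -0.43. Most genes of these lists were too dim to test, so their values cannot show whether Hpgds follows those cells. The same untested eosinophil list gave 0.65 with Avil and 0.58 with Trpm5. Nor were the macrophage and mast cell lists particular to Hpgds. Macrophage markers gave 0.62 with Dclk1, 0.34 with Ptgs1, 0.004 with Avil, -0.002 with Trpm5 and -0.07 with Alox5ap. Mast cell markers gave 0.54 with Alox5ap, 0.44 with Avil, 0.41 with Trpm5, 0.13 with Ptgs1 and -0.30 with Dclk1. Not every list that moved with Dclk1 is reported here. Enteroendocrine markers (5 of 6 tested, Neurod1 never good) gave 0.68 with Ptgs1, 0.59 with Dclk1, 0.49 with Alox5ap and 0.05 with Hpgds. Their sums were 3774 to 7582 on high protein and 3511 to 9493 on normal protein. Platelet markers (2 tested of 5 on the array, Ppbp and Gp1ba never good) gave 0.32 with Ptgs1. Whether any of these cells contribute to the signals of these members was not tested.

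Colon position genes lined up with the members on some arrays and not on others. High protein replicate 3 and normal protein replicate 6, the lowest arrays for Avil, Trpm5 and Alox5ap, were 2 of the 3 arrays with high Hoxb6 and Hoxb7. The other, high protein replicate 4, lay in mid-range for all 3 genes, at 6.81 for Avil, 6.44 for Trpm5 and 6.62 for Alox5ap. The distal colon gene Hoxb13 ranged from 6.12 to 12.56 on high protein and from 5.83 to 12.05 on normal protein, and its lowest array, normal protein replicate 4, was the highest for Avil and Trpm5. With the Hox score as a straight-line covariate the median difference of the tested members was -0.09, as without it. Such a term cannot take up values that peak at middle scores, and the part of colon position was not tested.

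The genes most like each tested member were found among all tested genes with a symbol, by Pearson r over 12 arrays after removing diet means; being the best of many, such values are high by selection. Those nearest Alox5ap were Egln2, a prolyl hydroxylase, at 0.957, Adh4, an alcohol dehydrogenase, at 0.951, and Bcar1, an adaptor of integrin signalling, at 0.938. Nearest Hpgds stood Cd68, a lysosomal protein of macrophages, at 0.913, Pigv at 0.873 and Fcer1g, the Fc receptor gamma chain of mast cells and myeloid cells, at 0.867. Ptgs1 was nearest to Ramp3 at 0.907, Mcm3 at 0.891 and Surf6 at 0.877. Avil was nearest to Ppp1cc at 0.895, Trappc10 at 0.891 and Slco4a1, an organic anion transporter, at 0.887. For Dclk1 the closest were Emid1 at 0.921, the receptor gene Notch1 at 0.898 and the adhesion gene Alcam at 0.890. The mean of the 5 members was nearest to Ptafr, the platelet-activating factor receptor, at 0.911, Ankzf1 at 0.908 and Ramp3 at 0.886.

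Other genes of tuft cell pathways gave 0 calls past the limma adjusted threshold in any list. Of 12 tested eicosanoid genes, the 3 members included, 11 lay below 0 with a median of -0.12, and 0 had an unadjusted p under 0.05. Prostacyclin synthase Ptgis was at -0.23 ± 0.11 (SE, limma adjusted p = 0.731), and thromboxane synthase Tbxas1 at -0.34 ± 0.21 (SE, limma adjusted p = 0.748). Ltc4s, the leukotriene C4 synthase, and Ptgs2 were flagged good on 0 arrays. Of 26 tested cytoskeletal and other tuft genes, Avil and Dclk1 included, 17 lay below 0 with a median of -0.07. Lrmp was at 0.53 ± 0.29, Bcl2l14 at 0.13 ± 0.07 and the tubulin gene Tuba1a at -0.29 ± 0.16 (SE, limma adjusted p = 0.731 for each).

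In the taste-type list 4 genes were tested, 2 below 0 and 2 above, with a median of -0.02. Itpr3, the inositol trisphosphate receptor of taste cells, averaged 7.65 ± 0.19 on high protein and 7.35 ± 0.21 on normal protein (SD, n = 6 each), a difference of 0.29 ± 0.11 (SE, limma adjusted p = 0.707). The G-protein subunit Gnb1 was at -0.12 ± 0.08 and the short-chain fatty acid receptor Ffar2 at -0.10 ± 0.20, while Gnat3 was flagged good on 2 arrays and the succinate receptor Sucnr1 on 0. Of the transcription factors 6, none of them a member, were tested, with 4 above 0 and a median of 0.06. Among them Runx1 was at 0.20 ± 0.14, Atoh1 at 0.10 ± 0.13 and Gfi1 at 0.07 ± 0.10 (SE).

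The type 2 list had 6 tested genes, with 2 below 0, 4 above and a median of 0.12. Il17ra, a subunit of the interleukin 25 receptor, averaged 10.21 ± 0.10 on high protein and 9.98 ± 0.21 on normal protein (SD, n = 6 each), a difference of 0.23 ± 0.10 (SE, limma adjusted p = 0.731). The interleukin 13 receptor subunit Il13ra1 was at -0.33 ± 0.15 (SE, limma adjusted p = 0.731), and the TSLP receptor subunit Crlf2 at 0.11 ± 0.11. The partner subunit Il17rb and the cytokines Il4, Il5, Il9 and Il13 were flagged good on 0 arrays. At an unadjusted p under 0.05, limma counted Itpr3 and Il17ra as higher on high protein, as for 393 of all tested genes (3.76%), and Il13ra1 as lower, as for 305 (2.92%).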

How the data were processed

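Per the file headers, scans at 532 nm (gain 600) were read with GenePix Pro 6.1.0.4. The deposited intensity values carry no normalization. The deposited series value table holds log2 values. RMA is named for it per the submitters' processing notes, with no role given. Its centring is not given in the sources used here. Its values fitted the scanner intensities only when moved by 1 row (r = 0.937, against 0.106 as given).

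Here the mean pixel and median local background were corrected with normexp (offset 50) in limma 3.58.1 under R 4.3.3, control spots were dropped, and log2 values were quantile normalized. A probe's spots were summarised by their median. Of several probes of a gene the brightest was used. Names came from RefSeq accessions (GRCr8 gene table, 18355 of 22031 probes with a RefSeq accession matched), and otherwise from the array. The 12 arrays, 6 of each diet, were fitted with lmFit and eBayes on diet alone, with Benjamini-Hochberg adjustment over 10451 tested genes and a threshold of 0.05. The fit was tested on simulated data. Pairwise array correlations were 0.923 to 0.985 and 0 pairs were identical. Slides were told apart by identifiers in the headers. Genes beyond the 10 were named by rule: up to 3 tested genes with the smallest p from each pathway list, the 3 genes most like each tested member, and Hoxb13, Hoxb6 and Hoxb7. Names outside this rule, such as Gnat3, Sucnr1, Ltc4s and Ptgs2, were chosen after their values were seen. The members and lists were chosen with earlier results of these data known. Results for some marker lists are not reported here.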

Additional observations from a re-analysis of the deposited data

Results flagged for a closer look

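Hpgds in high protein replicate 6 stood apart from its group. Its log2 intensity was 6.39, the nearest high protein array was at 6.69, and this gap made up 0.643 of the group's range, above Dixon's critical value for 6 samples. Of 20 groups examined, 10 genes in each diet, 1 was marked in this way, and chance marks about 1 in 20. Without that array the Hpgds difference was -0.03, against -0.09 with it.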

How the results depend on the processing

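The median difference of the tested members stayed below 0 under all 28 alternatives tried, from -0.28 to -0.02. Some of these could not move it. They were blocks for slide or replicate number, both balanced over diet, no filter on the flag, and the mean of a gene's tested probes. It was -0.09 with all arrays and -0.28 within slide 3, where 1 gene (Bik, no member) passed the adjusted threshold; no gene did under the other 27. Leaving out 1 array gave medians of -0.18, with normal protein replicate 6 left out, to -0.04, with high protein replicate 5 left out, and 0 to 0 genes past the threshold. Scaling to the 75th percentile gave -0.23, plain background subtraction with a floor of 10 gave -0.26, and the series value table gave -0.20. A normexp offset of 10 gave -0.35 for Alox5ap, -0.15 for Hpgds, -0.16 for Dclk1, -0.08 for Avil and -0.14 for Ptgs1. All 5 were further from 0 than with the offset of 50, so the folds and intervals given above hold for that offset. The limma adjusted p of the 5 members ran from 0.524 to 0.990 over all alternatives. Alox5ap, Hpgds and Dclk1 kept their direction in every alternative. Avil turned to 0.15 within slide 1, 0.19 within slide 2 and 0.040 without normal protein replicate 4 (-0.18 to 0.040 over single arrays left out), and Ptgs1 to 0.018 with median scaling and 0.17 within slide 2; the cause was not tested. Median scaling also left 6.32% of unadjusted calls on the lower side, against 43.7% with quantile normalization and 59.6% with 75th percentile scaling. Requiring good flags on all 12 arrays left Ptgs1 alone among the members. The Trpm5 and Avil correlation ran from 0.75 (mean of spots) to 0.98, and from 0.96 to 0.98 with single arrays left out. With replicate number as a block 0 genes passed the threshold. The median was -0.09 by design, since each number holds an array of each diet. Deviations of same-numbered arrays correlated at -0.11 to 0.40, above 0.1 in 3 of 6 pairs. The labels do not say whether a number marks a shared source, so the numbers were not taken as pairs. Dim signal limits Pou2f3, Gfi1b, Plcb2 and Il25, for which a diet difference was not detectable.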
